A study of Mus musculus with 384 samples.

Results

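The cells described here are granulocyte/macrophage progenitors (GMPs) of mouse bone marrow whose RNA profile leaned furthest towards late G1 and S phase and away from mitosis. They were selected on their own measured RNA. In each well of a plate, 2 means of log2(CPM+1) were taken, where CPM is reads per 1000000 reads on genes. The S score was the mean of Mcm3, Mcm5, Mcm6, Ung, Cdc6, Ccne2, Gins2, Dtl and Uhrf1, and the M score the mean of Ube2c, Nusap1, Plk1, Aurka, Cdc20 and Ccnb1. Both were standardised within a set of wells, and the 25% of wells with the highest S minus M were taken from each set. Wells entered with 200000 or more reads on genes and 2000 or more detected genes, which 316 wells of 4 plates of 96 did, and 80 of these became members. The members numbered 18 of 72 wells in BCR-ABL replicate 1, 15 of 59 in replicate 2, 23 of 91 in replicate 4 and 24 of 94 in the control set. The other 236 kept wells are called the remaining wells.

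The study measured RNA in single GMPs after induction of the BCR/ABL oncogene. BCR-ABL animals were C57Bl/6 mice with Scl-tTA and TRE-BCR/ABL transgenes, in which the transactivator is driven from the Scl promoter, a gene of stem and progenitor cells, and doxycycline keeps the oncogene off. They were bred on doxycycline at 20 mg/L in drinking water, which was withdrawn at 5 weeks of age to start a myeloproliferative disease like chronic myeloid leukaemia, and marrow was taken 5 to 6 weeks after induction. Control cells also carry the strain label C57Bl/6 and were taken in the same period, but the labels do not give the transgenes or the doxycycline of the control mice. The gate took cells that bear c-Kit, CD34 and FcγR and lack Sca-1 and lineage markers, with 1 cell to a well, and cDNA was made by SMART-seq2, a full-length method without molecular identifiers.

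A cell commits to division in late G1, when E2F factors are released from the retinoblastoma protein and switch on genes for DNA replication. Origins are then loaded with the MCM helicase by ORC, CDC6 and CDT1, cyclin E and its kinase help to fire them, and polymerases, the PCNA clamp and nucleotide synthesis copy the genome. Genes for chromosome condensation, the spindle and cyclin B follow in G2 and mitosis. GMPs are among the fast dividing progenitors of the marrow and give rise to neutrophils and monocytes, and BCR-ABL is the fused tyrosine kinase of chronic myeloid leukaemia.

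E2F factors bind short DNA words, so the bases before the start of the score genes were searched for TTTCCCGC, TTTGGCGC, TTTCGCGC and TTTGCCGC on both strands. RefSeq promoters (GRCm38.p6) were matched for 7 of the 9 S genes and all 6 M genes. At least 1 of these words stood in the 250 bases before a start in 5 of the 7 S genes and in 0 of the 6 M genes. The same words stood in 1.86% of all 32841 windows of that length, and in 4.34% of the 7717 genes measured here that had a promoter entry. They are shown for Mcm5 and Mcm6, subunits of the replicative helicase, and for Dtl, the substrate receptor of a ligase that degrades CDT1 in S phase. Capitals mark the matched letters, and neighbouring matches can share bases because TTTGGCGC on the other strand can overlap TTTCGCGC. The stretches lie at chr8:75109321-75109402 on the plus strand for Mcm5, at chr1:128359710-128359850 on the minus strand for Mcm6 and at chr1:191575545-191575587 on the minus strand for Dtl.
Mcm5: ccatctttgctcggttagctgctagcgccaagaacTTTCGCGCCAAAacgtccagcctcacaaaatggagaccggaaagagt
Mcm6: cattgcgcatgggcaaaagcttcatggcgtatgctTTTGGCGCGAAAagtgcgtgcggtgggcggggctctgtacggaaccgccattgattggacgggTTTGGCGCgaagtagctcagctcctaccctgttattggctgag
Dtl: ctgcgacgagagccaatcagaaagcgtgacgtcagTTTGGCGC

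Outside the score the words stood in 4 of 11 licensing genes with an entry (36.4%), 2 of 9 firing genes (22.2%), 3 of 24 polymerase genes (12.5%), 0 of 13 nucleotide genes and 2 of 33 G2 and mitosis genes (6.06%). Of the genes counted below as higher in members, 0 of 34 held one, and of those counted as lower 4 of 148 (2.70%).

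Ung had no such word in its window, and neither did E2f1, Ccne1, Mcm2, Pcna or Rrm2. A match is a run of letters, not a measured binding site, and a window without one says only that these letters are not there.

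Depth on genes ran from 215800 to 4758711 reads per kept well (median 1495307), and the members' reads of a set summed to between 32.76 and 36.87 M, where M is 1000000 reads. No 2 wells had identical counts. The gate genes were present in the members. Kit, which encodes the c-Kit receptor of the gate, had at least 10 reads in 18 of 18, 15 of 15, 23 of 23 and 21 of 24 members of BCR-ABL replicates 1, 2 and 4 and the control, and Fcgr3, an Fcγ receptor gene, in all 80. Cd34 had at least 10 reads in 13, 13, 15 and 22 of these members. Ly6a, which encodes Sca-1, had a median below 1 CPM in the members of each set. Xist, the RNA of the inactive X chromosome, had no read in any member of BCR-ABL replicates 2 and 4 and at least 10 reads in every member of replicate 1 and of the control, so BCR-ABL sets of both kinds face a control set of 1 kind. Which sets come from different mice is not stated in the labels, and p-values below measure the spread between sets, technical spread included.

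The lowest member score (S minus M, in standard deviations) was 1.44, 1.26, 1.48 and 1.58 in BCR-ABL replicates 1, 2 and 4 and the control, and the highest score outside was 1.27, 1.24, 1.47 and 1.55. The class is therefore a range of a continuous score with no gap at its edge. Of the 80 members, 78 had an S score above the mean of their set, 77 an M score below it, and 45 an S score more than 1 standard deviation above it. Among the remaining wells, 13 had an S score above the median member of their set, 8 of them in BCR-ABL replicate 1. DNA content was not measured, so the name of the class rests on RNA alone.

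**Figure D1:**
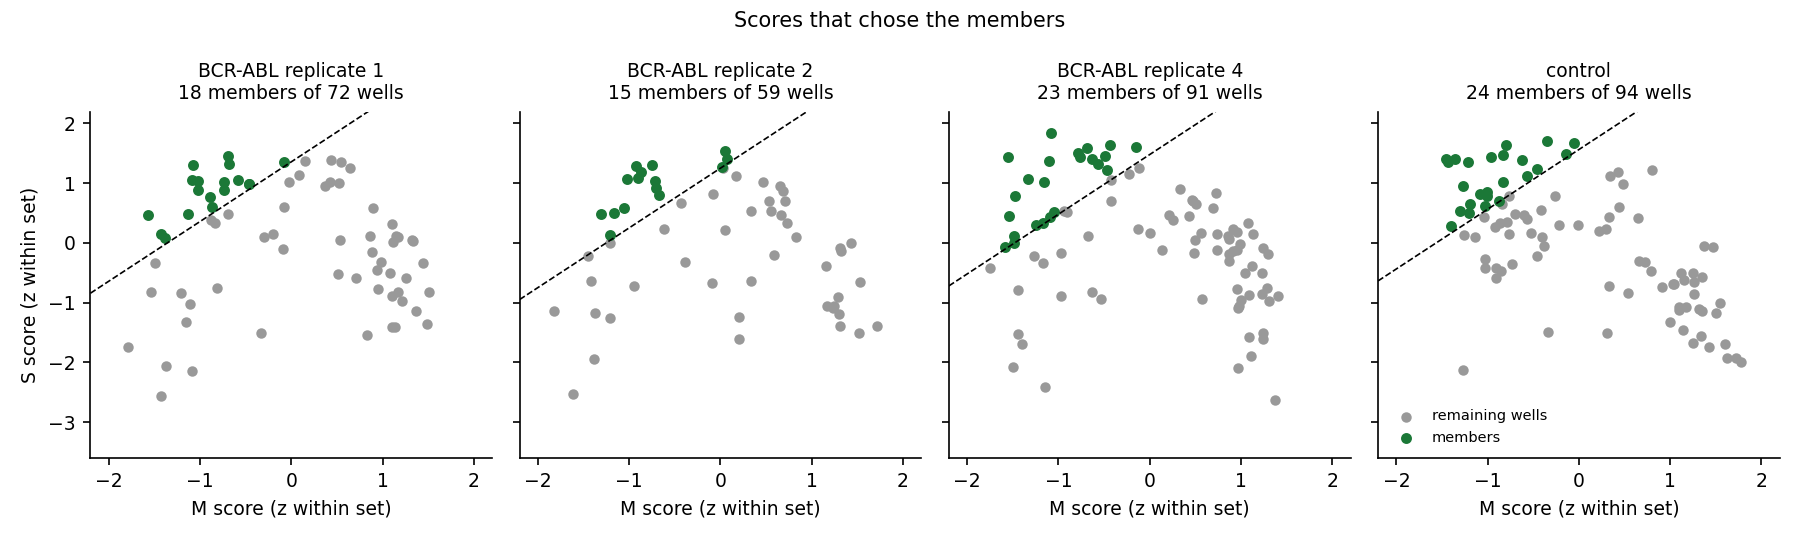
S score against M score, each as a z-score within its set, for 316 wells in 4 sets, with 80 members in green, remaining wells in grey and a dashed line midway between the lowest member score and the highest score outside. Members fill the upper left corner, and grey wells adjoin the line in every set.

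The genes of the S score are given first, as a description, because they chose the wells. Ung, the uracil glycosylase that removes uracil from newly made DNA, had the largest difference among them. Summed over members, it stood at 227, 252, 171 and 249 CPM in BCR-ABL replicates 1, 2 and 4 and the control, against 40.2, 72.3, 18.9 and 45.1 CPM in the remaining wells. The lowest member sum was above the highest remaining sum. On the scale used from here on, log2 of the ratio of summed CPM with 1 CPM added to each, the difference was 2.45 ± 0.54 (SD over 4 sets). In single wells Ung had at least 10 reads in 17 of 18, 13 of 15, 22 of 23 and 24 of 24 members, against 18 of 54, 25 of 44, 13 of 68 and 26 of 70 remaining wells.

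Ccne2, a cyclin E gene, stood at 70.7, 92.2, 75.1 and 84.1 CPM in members and 44.5, 17.2, 18.3 and 24.5 CPM in remaining wells, a difference of 1.68 ± 0.73. Cdc6, which loads the helicase at origins, stood at 133, 185, 73.5 and 156 CPM in members and 77.4, 56.6, 28.4 and 47.8 CPM in the rest, a difference of 1.37 ± 0.43. For both, BCR-ABL replicate 1 had the highest level in the remaining wells. Uhrf1, which guides maintenance methylation behind the fork, differed by 1.20 ± 0.42 and Dtl by 0.95 ± 0.25. The helicase subunits Mcm3, Mcm6 and Mcm5 differed by 0.92 ± 0.23, 0.88 ± 0.25 and 0.84 ± 0.29, and Gins2, part of the active helicase, by 0.77 ± 0.13. Mcm5 stood at 632, 849, 636 and 943 CPM in members and at 451, 498, 333 and 416 CPM in remaining wells. Reads of the helicase genes were thus present in nearly every cell, with Mcm3 and Mcm6 read in 100% and Mcm5 in 99.7% of kept wells, while Ung was read in 83.5% and Ccne2 in 71.8%.

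The M genes were correspondingly low. Ube2c, the ubiquitin conjugating enzyme of the anaphase promoting complex, stood at 9.03, 22.3, 21.5 and 5.94 CPM in members and at 336, 316, 470 and 381 CPM in the rest, a difference of -4.75 ± 0.87. The smallest difference of the 6 was that of Cdc20, an activator of the same complex, at -1.90 ± 0.46. Cdc20 still reached 58.5 to 97.8 CPM in the member sums.

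Outside the 15 score genes, 11494 genes had a read in at least 25% of kept wells. Since the same wells chose the members, these contrasts carry no test. A gene is counted as higher or lower here when it had the same sign in 4 of 4 sets and a mean log2 difference of 1 or more in size. By this count 46 genes (0.400%) were higher in members, 42 of them protein coding, and 200 (1.74%) were lower, 185 of them protein coding. The same sign in 4 of 4 sets, whatever the size, was found for 1090 genes (9.48%) on the higher side and 1633 (14.2%) on the lower side. The median difference over the 11494 genes was -0.04. With 3 sets in place of 4 the count of 46 became 70 without BCR-ABL replicate 1, 74 without replicate 2 and 73 without the control set.

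Genes of origin licensing were higher in members. Of 13 such genes outside the score, 8 were higher in 4 of 4 sets, none was lower in 4 of 4, and the median difference was 0.51. Mcm2, another helicase subunit and not in the score, stood at 576, 785, 500.4 and 689 CPM in members against 329, 357, 225 and 334 CPM in remaining wells. All 4 member sums exceeded all 4 remaining sums, and the difference was 1.03 ± 0.16, the only one of the list that was counted. The share of the 11494 genes whose sums separate in this way was not determined. Separation of sums is therefore a description only, here and for the genes below. Mcm4 stood at 378, 374, 293 and 465 CPM against 215, 232, 111 and 219 CPM and differed by 0.995 ± 0.31, just under the limit. Cdt1, the loader that is destroyed once S phase starts, stood at 334, 307, 306 and 308 CPM against 179, 184, 128 and 194 CPM, a difference of 0.89 ± 0.26. Mcm7 differed by 0.58 ± 0.19. Mcm10 differed by 0.60 ± 0.43 and was higher than in the middle of the score in 3 of 4 sets.

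Origin firing and fork genes followed at smaller size. Of 14 firing genes, 7 were higher in 4 of 4 sets, 2 were lower in 4 of 4, and the median difference was 0.40. Wdhd1 and Timeless, which tie the helicase to the polymerases and stabilise the fork, differed by 0.61 ± 0.38 and 0.60 ± 0.43, and Clspn, the checkpoint mediator at the fork, by 0.46 ± 0.12. Dbf4, the activator of the CDC7 kinase, ran the other way at -0.87 ± 0.64. It stood at 55.1, 61.4, 33.2 and 40.2 CPM in members and 86.6, 66.6, 104.5 and 86.4 CPM in the rest.

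Of 28 genes for polymerases, clamp, clamp loaders and Okazaki fragments, 14 were higher in 4 of 4 sets and none lower in 4 of 4, with a median of 0.38. The largest differences were those of Atad5, which unloads the clamp, at 0.76 ± 0.22, Dna2, a nuclease of the lagging strand, at 0.72 ± 0.19, and Lig1, the ligase that joins Okazaki fragments, at 0.71 ± 0.25. Lig1 stood at 165, 251, 182 and 258 CPM in members and 130, 145, 99.7 and 142 CPM in the rest. Pcna, the clamp, stood at 161, 206, 148 and 224 CPM against 132, 158, 99.5 and 146 CPM, a difference of 0.46 ± 0.15.

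Nucleotide supply gave a median of 0.28 over 15 genes, 9 of them higher in 4 of 4 sets and none lower in 4 of 4. Rrm2, the S-phase subunit of ribonucleotide reductase, stood at 403, 455, 287 and 355 CPM against 377, 373, 269.9 and 225 CPM and differed by only 0.28 ± 0.26. Its median member well in BCR-ABL replicate 4 held 206 CPM, below the 211 CPM of the median remaining well of that set.

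E2F, cyclin and inhibitor genes went both ways. Of 27 measured, 7 were higher and 6 lower in 4 of 4 sets, with a median of 0.13. E2f1, the activating E2F factor (chromosome 2, 154559407 to 154569892, minus strand, mm10), had the largest difference on the higher side of this list. It stood at 51.6, 43.9, 48.5 and 59.7 CPM in members and 18.4, 19.4, 15.8 and 16.6 CPM in remaining wells. Member and remaining sums did not overlap and the difference was 1.48 ± 0.27. Reads of E2f1 were patchy, with at least 10 reads in 13 of 18, 11 of 15, 15 of 23 and 15 of 24 members, against 23 of 54, 19 of 44, 17 of 68 and 24 of 70 remaining wells. Ccne1, the other cyclin E gene, stood at 52.7, 55.7, 68.3 and 57.2 CPM against 46.4, 30.8, 17.4 and 24.1 CPM, a difference of 1.04 ± 0.72 that was small in BCR-ABL replicate 1.

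Within the same list 3 genes were counted as lower. Ccna2, the cyclin of late S phase and G2, stood at 137, 109, 78.3 and 98.2 CPM in members against 271, 276, 338 and 328 CPM in the rest, a difference of -1.54 ± 0.48. Cdkn2d, an inhibitor of the cyclin D kinases, stood at 19.4, 16.8, 18.7 and 14.7 CPM against 68.9, 58.1, 51.7 and 54.2 CPM, a difference of -1.68 ± 0.18. Cdkn1b, the p27 inhibitor of cyclin E kinase, stood at 6.03, 2.53, 0.82 and 3.06 CPM against 11.8, 7.99, 6.71 and 10.02 CPM, a difference of -1.43 ± 0.50. For each of the 3, no member sum reached the lowest remaining sum.

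**Figure D2:**
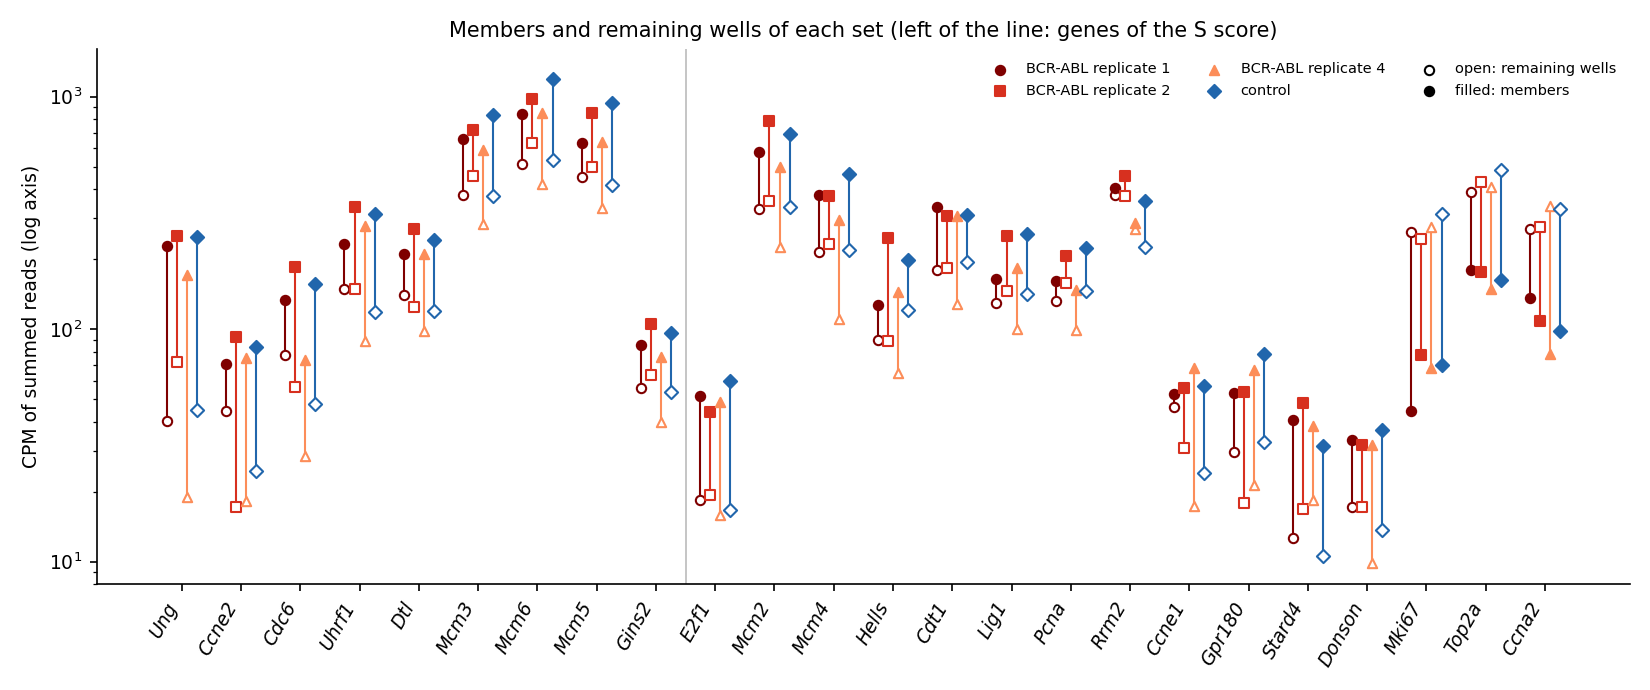
CPM of summed reads on a log axis for 24 genes in members (filled) and remaining wells (open) of each of 4 sets, joined by a line per set, with the 9 genes of the S score left of the vertical line. Filled symbols lie above open ones for Ung, E2f1 and Mcm2 in every set, nearly meet for Rrm2, and lie below for Mki67, Top2a and Ccna2.

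Chromatin and repair genes were mixed. Of 16 chromatin genes, 9 were higher and 2 lower in 4 of 4 sets, with a median of 0.24. Hells, a remodeller needed for DNA methylation, differed by 0.95 ± 0.44 and Chaf1b, of the complex that places histones behind the fork, by 0.94 ± 0.20. Chaf1b stood at 117, 168, 148 and 159 CPM in members and at 69.49, 95.25, 70.25 and 70.85 CPM in the rest. H2afx, a histone gene with a polyadenylated form, was lower by -1.33 ± 0.32. Of 24 repair genes, 8 were higher and 3 lower in 4 of 4 sets, with a median of 0.24. The mismatch repair gene Msh6 differed by 0.89 ± 0.30 and the glycosylase gene Neil3 by -1.42 ± 0.52. The set medians of the repair list ran from -0.06 in BCR-ABL replicate 1 to 0.59 in the control, so its sign was not shared by all sets.

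Of the 46 genes counted as higher, 3 were in a cell cycle list, namely Mcm2, Ccne1 and E2f1. After E2f1, the largest differences among named genes were those of Sh3pxd2b (1.43 ± 0.61), Tarbp1 (1.41 ± 0.73), Stard4 (1.40 ± 0.26), Slc7a4 (1.38 ± 0.69), Dhrs13 (1.36 ± 0.27), Gpr180 (1.30 ± 0.35), Taf4b (1.23 ± 0.79), Rassf7 (1.22 ± 0.36), Simc1 (1.19 ± 0.71), Donson (1.18 ± 0.36) and Rfxap (1.17 ± 0.29). Stard4, a cholesterol carrier, stood at 40.9, 48.04, 38.3 and 31.5 CPM in members and 12.7, 16.8, 18.4 and 10.6 CPM in the rest. Donson, a replication fork factor that was in none of the lists, stood at 33.4, 31.7, 31.8 and 36.8 CPM against 17.2, 17.2, 9.92 and 13.7 CPM. Member and remaining sums did not overlap for either gene. Some of the others rested on few wells. A single well held 37.1% to 67.96% of the members' Sh3pxd2b reads in each set and 15.1% to 20.9% of those of Gpr180. Without the well richest in the gene in each set, Sh3pxd2b still differed by 1.02 and E2f1 by 1.23.

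Genes of G2 and mitosis were lower in members. All 39 measured genes of that list had a negative mean difference, 38 were lower in 4 of 4 sets, 34 were counted as lower, and the median was -1.45. Those 34 were part of the 200 genes counted as lower. Cdc25c, a phosphatase that switches on the mitotic kinase, stood at 4.36, 11.4, 0.40 and 0.11 CPM in members and 29.6, 32.1, 44.9 and 44.6 CPM in the rest, a difference of -3.58 ± 1.92 with wide spread because the member levels were near 0. Kif2c, a kinesin that takes apart microtubules at centromeres, stood at 16.1, 9.58, 5.91 and 0.52 CPM in members and 67.1, 60.9, 98.4 and 72.2 CPM in the rest, and Hmmr, a spindle protein, differed by -3.32 ± 0.30. Outside the list, Prr11 (-3.55 ± 1.12), Cdc25b (-2.92 ± 0.54), the kinesin gene Kif4 (-2.87 ± 0.47) and the helicase gene Pif1 (-2.75 ± 0.80) were among the 12 largest. Cdc25b, another such phosphatase, differed from the middle of the score by only -0.75 ± 0.74.

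Genes often used to mark cycling cells of any phase were low in members as well. Mki67 stood at 44.3, 77.6, 68.4 and 70.2 CPM in members against 262, 245, 276 and 314 CPM in remaining wells, a difference of -2.08 ± 0.37. Top2a stood at 179, 175, 149 and 163 CPM against 388, 431, 410.4 and 485 CPM, a difference of -1.36 ± 0.20. Member sums lay below every remaining sum for both genes, yet neither was near 0.

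**Figure D3:**
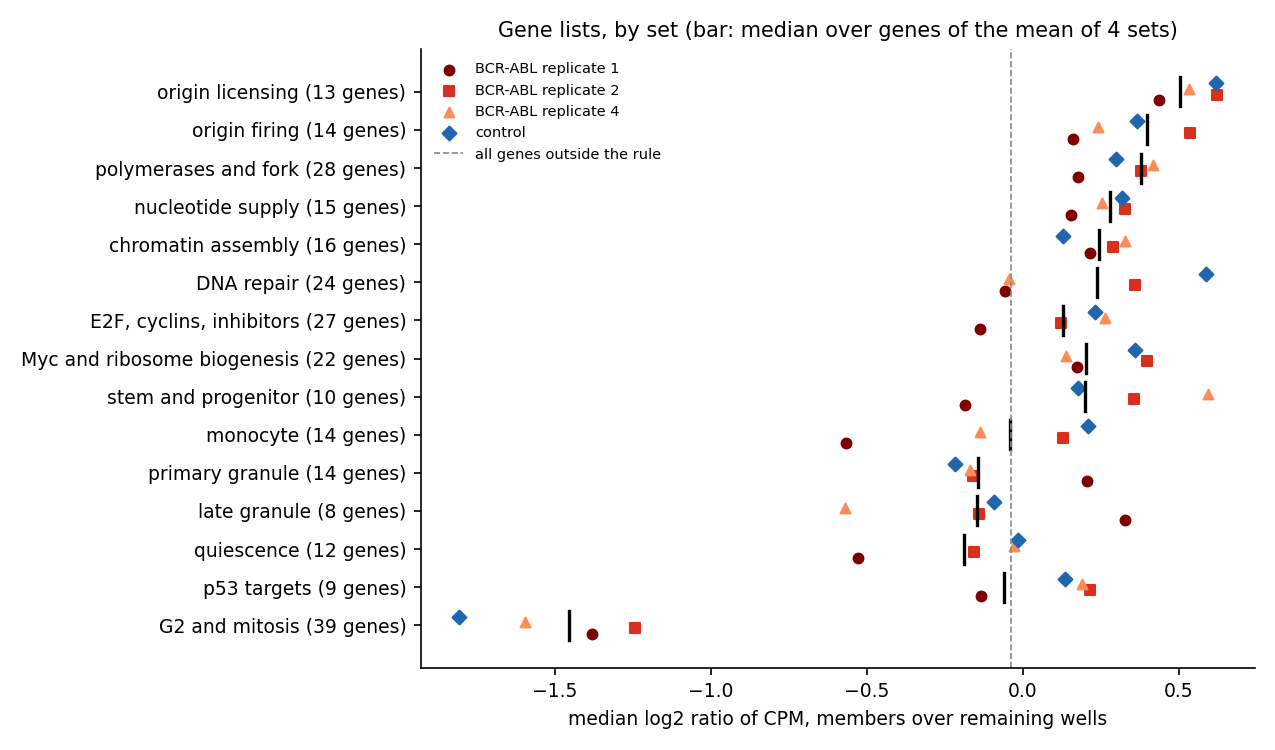
Median log2 ratio of CPM (members over remaining wells) of 15 gene lists in each of 4 sets, with a black bar at the median over genes of the mean of 4 sets and a dashed line at the median of all genes outside the score (-0.04). All 4 sets lie right of the line for licensing (median 0.51), firing, polymerases, nucleotide supply, chromatin and Myc lists, and far left of it for G2 and mitosis (-1.45).

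To see where along the score these differences lay, members were also set against the middle of the score alone, the 156 wells that are neither members nor among the 80 with the lowest scores, called the M end. Of the 11494 genes, 852 (7.41%) were higher in members than in the middle in 4 of 4 sets. Of the 46 genes, 39 were higher than in the middle in 4 of 4 sets and 24 kept a mean difference of at least 1. The middle makes up most of the remaining wells against which the 46 were chosen. These counts therefore follow largely from that choice and cannot be set against the share over all genes. The replication lists differed less from the middle than from all remaining wells, with medians of 0.35 for licensing, 0.18 for firing, 0.18 for polymerases and 0.06 for nucleotide supply. Against the M end the same lists differed by 1.07, 0.52, 0.67 and 0.73.

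Single genes showed different gradients. Ung stood at 62.1, 112, 29.8 and 74.8 CPM in the middle and 0.81, 5.77, 0.48 and 0.90 CPM at the M end of BCR-ABL replicates 1, 2 and 4 and the control. E2f1 stood at 23.8, 24.8, 23.7 and 22.6 CPM in the middle and 8.77, 10.2, 2.47 and 7.77 CPM at the M end. Both were lower step by step from members through the middle to the M end in every set. Ung is a gene of the S score that set these ranges, so its steps are a description only, while E2f1 is outside the score. Pcna differed little between members and the middle (0.14 ± 0.17, higher in 3 of 4 sets) and by 1.25 ± 0.16 from the M end. Rrm2 did not differ from the middle beyond its spread (0.02 ± 0.32, higher in 2 of 4 sets), and differed from the M end by 0.89 ± 0.25. Ccna2 was at its lowest in members, at 234, 204, 277 and 214 CPM in the middle and 338, 397, 441 and 497 CPM at the M end.

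**Figure D4:**
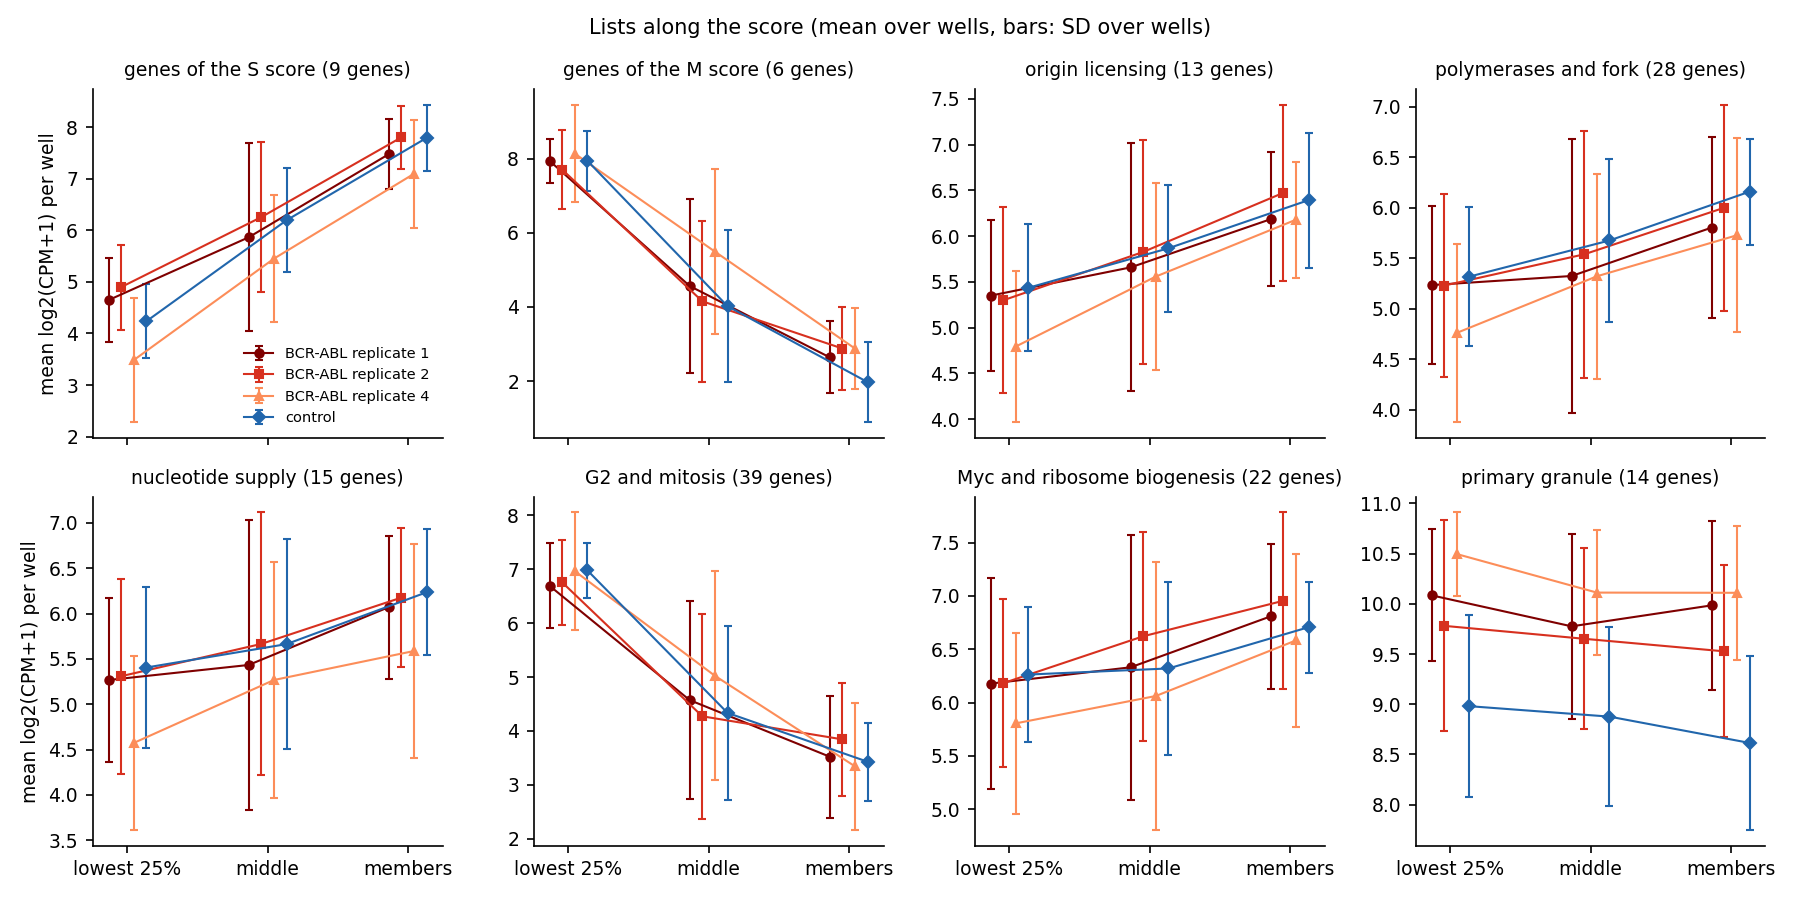
Mean log2(CPM+1) per well of gene lists in members, the middle of the score and the M end, with 1 line per set for 4 sets and bars for the SD over wells. Licensing genes step down from members (6.18 to 6.47) to the M end (4.79 to 5.44) in every set, and G2 and mitosis genes step up from between 3.34 and 3.84 to between 6.69 and 6.98.

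Genes of MYC and ribosome biogenesis, which supply the protein synthesis of growing cells, had a small difference of one sign. All 22 had a positive mean difference, 8 were higher in 4 of 4 sets and none was counted, with a median of 0.20. Myc itself stood at 615, 604, 605 and 599 CPM in members against 475, 550.05, 473 and 323 CPM in the rest, a difference of 0.44 ± 0.32. The member sums of Myc were nearly equal in the 4 sets.

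Lineage lists had small median differences, and their set medians did not share a sign. For primary granule genes these were 0.21, -0.16, -0.17 and -0.22 in BCR-ABL replicates 1, 2 and 4 and the control. For later granule genes they were 0.33, -0.14, -0.57 and -0.09, and for monocyte genes -0.57, 0.13, -0.14 and 0.21. For stem and early progenitor genes they were -0.19, 0.36, 0.59 and 0.18. Among 14 genes of primary granules, the proteases and enzymes made at the promyelocyte stage, 3 had a positive mean difference, 1 was lower in 4 of 4 sets and the median was -0.14. Elane, neutrophil elastase, differed by -0.06 ± 0.31 and Mpo, myeloperoxidase, by 0.12 ± 0.18. Among 8 measured genes of later granules the median was -0.15, and Chil3, a chitinase-like protein of myeloid cells, was counted as lower. Chil3 stood at 209, 108, 108 and 20.3 CPM in members against 872, 377, 335 and 51.7 CPM in the rest, a difference of -1.69 ± 0.31. Monocyte genes had a median of -0.04 over 14 genes, with none of one sign in 4 of 4 sets. Irf8, the factor that favours monocytes, differed by -0.33 ± 1.11 and Gfi1, which favours neutrophils, by -0.39 ± 0.47. Stem and early progenitor genes had a median of 0.20 over 10 genes, 3 of them higher in 4 of 4 sets. Adgrg1, an adhesion receptor gene of stem cells, stood at 159, 91.5, 184 and 161 CPM in members and differed from the rest by 0.71 ± 0.22.

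Of the genes of other blood cells, some were read in at least 25% of wells. The number was 2 of 13 for erythroid cells, 0 of 9 for megakaryocytes, 3 of 9 for basophils and mast cells, 4 of 11 for dendritic cells and 3 of 14 for lymphoid cells. Those that were read could reach high levels. Cpa3, a mast cell protease gene, stood at 4.06, 218, 287 and 172 CPM in members of BCR-ABL replicates 1, 2 and 4 and the control, and Mcpt8, a basophil protease gene, at 79.9, 80.3, 202 and 22.4 CPM. Summed over the lymphoid list, members held 1474, 1292, 1359 and 1325 CPM, of which Nkg7, also in the primary granule list, gave 1396, 1007, 1294 and 673 CPM and Ighm, an immunoglobulin gene, 9.03, 199, 24.2 and 521 CPM. In members Cd3e, Cd3g, Dntt, Rag1 and Ly6d had no read. Their part in the results was not tested. Eosinophil genes were high in 1 member. That cell of BCR-ABL replicate 4 held 111475 CPM of Prg2 and 34450 CPM of Epx, both eosinophil granule genes, in 1173093 reads and 8171 genes. The other 22 members of the set had a median of 0 CPM for both and at most 70.6 CPM of Prg2 and 23.2 CPM of Epx. The same cell had 14.5 CPM of Ung, 375 CPM of Mcm5 and no read of Cdc6. In that set the difference of Epx was 8.58 with the cell and -0.27 without it. Without it Ung differed by 2.46 over the 4 sets, and the counts were 48 genes higher and 200 lower.

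One remaining well of BCR-ABL replicate 4 stood apart, with 19454 genes in 522041 reads where the next well had 11679, and it was kept. Without it, an alternative chosen after seeing the data, the counts were 46 genes higher and 200 lower. Members did not hold more reads than the remaining wells by more than the spread between sets, with a log2 ratio of median reads of 0.13 ± 0.21, higher in 2 sets and lower in 2. At 200000 reads per well, members had medians of 7317, 7424, 7451 and 7117.5 genes, against 7693.5, 7582, 7698.5 and 7364.5 in the rest, so they were lower in 4 of 4 sets. Reads on genes per spike-in read, a measure of RNA per well, had a log2 ratio of -0.02 ± 0.12. The median share of reads on mitochondrial genes was 3.06%, 2.60%, 2.98% and 2.77% in members against 3.54%, 2.91%, 3.36% and 3.36% in the rest. The part of these values in the gene differences was not tested beyond thinning, where 75 of the 80 members were chosen again and 44 genes were counted as higher and 205 as lower.

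The study asks how GMPs change on induction of BCR-ABL, and within members this compares 3 BCR-ABL sums with 1 control sum. The 9 genes of the S score chose the members of every set. They are left out of this text and appear only in the figure of this comparison, as a description. E2f1 stood at 51.6, 43.9 and 48.5 CPM in BCR-ABL members and 59.7 CPM in control members, a log2 fold change of -0.29 ± 0.29 (SE). The values were for Ccne1 0.06 ± 0.29, for Rrm2 0.13 ± 0.33 and for Myc 0.05 ± 0.17. Medians of the log2 fold change were 0.02 over 13 licensing genes, -0.04 over 14 firing genes, -0.10 over 28 polymerase genes, -0.09 over 15 nucleotide genes, -0.02 over 30 E2F and cyclin genes, -0.17 over 16 chromatin genes and -0.31 over 26 repair genes, beside 0.08 over all genes tested. Of these lists, 6 genes had an unadjusted p under 0.05 in edgeR, each with all 3 BCR-ABL sums on one side of the control. They were 1 of 14 firing, 1 of 15 nucleotide and 1 of 26 repair genes, and 2 higher and 1 lower of 30 E2F and cyclin genes. The licensing, polymerase and chromatin lists had 0. Over all genes tested the share was 5.48% (899 of 16407), so the 6 are given as a description only. Rrm2b, a subunit of ribonucleotide reductase, stood at 8.15, 5.37 and 13.2 CPM against 0.11 CPM. The control value rests on very few reads, since 3 reads in control members would be 0.0814 CPM. Its log2 fold change in members was 6.33 ± 1.27. The change of its member-minus-rest difference with BCR-ABL was nearly as large, at 6.10 ± 1.13, so BCR-ABL and control differed little for Rrm2b in the remaining wells. Ccnd1, cyclin D1, stood at 9.39, 25.5 and 27.6 CPM against 3.90 CPM. Xrcc2, a recombination gene, stood at 18.3, 29.1 and 16.3 CPM against 5.42 CPM, and Rb1, the retinoblastoma gene, at 19.4 CPM or more in each BCR-ABL sum against 9.25 CPM. Wdhd1 stood at 98.2, 111 and 113 CPM against 167 CPM, and E2f2, another activating E2F factor, at 3.97, 5.49 and 9.29 CPM against 24.8 CPM. Ccnd1 and E2f2 had a read in fewer than 25% of kept wells, so their sums can come from few wells. None of the 6 passed after adjustment in edgeR, and DESeq2 called 1 gene over these lists, Rrm2b.

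No gene passed edgeR's quasi-likelihood test in this comparison. Of 16407 genes tested, 0 (0%) had an adjusted p under 0.05, the smallest being 0.897, and 899 (5.48%) had an unadjusted p under 0.05. The test has 2 residual degrees of freedom, takes the spread from the BCR-ABL sets and assumes that the lone control sum varies like them. With DESeq2 417 genes passed, 348 of them higher and 69 lower in BCR-ABL, and limma-voom called 0 with 1124 at an unadjusted p under 0.05. Condition and set cannot be told apart with 1 control set.

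Log2 fold changes of granule genes in members were mostly positive and those of monocyte genes negative, directions also seen in the middle of the score. All 14 primary granule genes had a positive log2 fold change, with a median of 0.85, and 8 had an unadjusted p under 0.05, but none passed after adjustment in edgeR, while DESeq2 called 7 as higher. Elane stood at 21057, 17209 and 16878 CPM in BCR-ABL members and 10742 CPM in control members, a log2 fold change of 0.80 ± 0.18 with an adjusted p of 0.897 in edgeR. Gfi1 stood at 89.1, 64.4 and 175 CPM against 24.1 CPM, and had at least 10 reads in 14 of 18, 11 of 15 and 21 of 23 BCR-ABL members and in 6 of 24 control members. Of 13 later granule genes tested, 10 had a positive log2 fold change, and at an unadjusted p under 0.05 5 were higher and 2 lower. None passed in edgeR, and DESeq2 called 5 as higher and 1 as lower. Lcn2, lipocalin 2, stood at 420, 193 and 470.5 CPM against 39.7 CPM, and Lrg1, a secreted glycoprotein of granulocytes, at 52.2, 54.02 and 27.03 CPM against 0.54 CPM. The 2 on the lower side were Lyz2, lysozyme, at 382, 457 and 275 CPM against 1370 CPM, and Mmp8, a collagenase, at 0, 0.09 and 0 CPM against 5.88 CPM. Mmp8 had a read in fewer than 25% of kept wells, so its control sum can come from few wells.

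Monocyte genes lay the other way. All 16 tested had a negative log2 fold change, with a median of -1.54, and 8 had an unadjusted p under 0.05, with none passing after adjustment in edgeR, while DESeq2 called 4 as lower. Psap, a lysosomal protein precursor, stood at 218, 346 and 219 CPM in BCR-ABL members and 828 CPM in control members. Cx3cr1, a chemokine receptor of monocytes, stood at 2.76, 7.20 and 2.78 CPM against 40.6 CPM. Irf8 stood at 158, 635 and 24.5 CPM against 1127 CPM, a log2 fold change of -2.02 ± 1.46, and had at least 10 reads in 6 of 18, 10 of 15 and 3 of 23 BCR-ABL members and in 22 of 24 control members. A sum over cells does not tell fewer cells with a transcript from less transcript per cell, and BCR-ABL replicate 2 was closest to the control for Irf8. These directions were not particular to members. In the middle of the score, primary granule genes averaged 9.78, 9.65 and 10.11 log2(CPM+1) per well in BCR-ABL replicates 1, 2 and 4 against 8.88 in the control. There later granule genes averaged 5.1, 3.9 and 4.9 against 2.6, and monocyte genes 5.15, 5.13 and 4.20 against 6.68. These averages cover only the 8 later granule and 14 monocyte genes read in at least 25% of wells, fewer than were tested. On the same genes and measure, members averaged 5.02, 4.12 and 4.27 against 2.54 for later granule genes. Their monocyte genes averaged 4.72, 5.705 and 3.92 against 7.01.

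The genes with the smallest p were named whatever their list. Vim, vimentin, stood at 335, 368 and 380 CPM against 944 CPM, S100a10 at 25.8, 42.3 and 36.3 CPM against 206 CPM, Ncf4, a subunit of the phagocyte oxidase, at 168, 168 and 138 CPM against 485 CPM, and Nrp1 at 1.12, 1.34 and 0.54 CPM against 37.9 CPM. Higher in all 3 BCR-ABL sums were Ptger3, a prostaglandin receptor gene, at 17.4, 13.1 and 22.6 CPM against 0.24 CPM, and F5, coagulation factor V, at 22.8, 13.9 and 23.3 CPM against 0.33 CPM. Ccno stood at 26.5, 16.97 and 23.5 CPM and Gadd45g at 10.5, 18.5 and 12.7 CPM, with no read in control members, where 3 reads would be 0.0814 CPM. Ifitm1, an interferon-inducible gene, stood at 118, 225 and 146 CPM against 32.8 CPM.

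**Figure D5:**
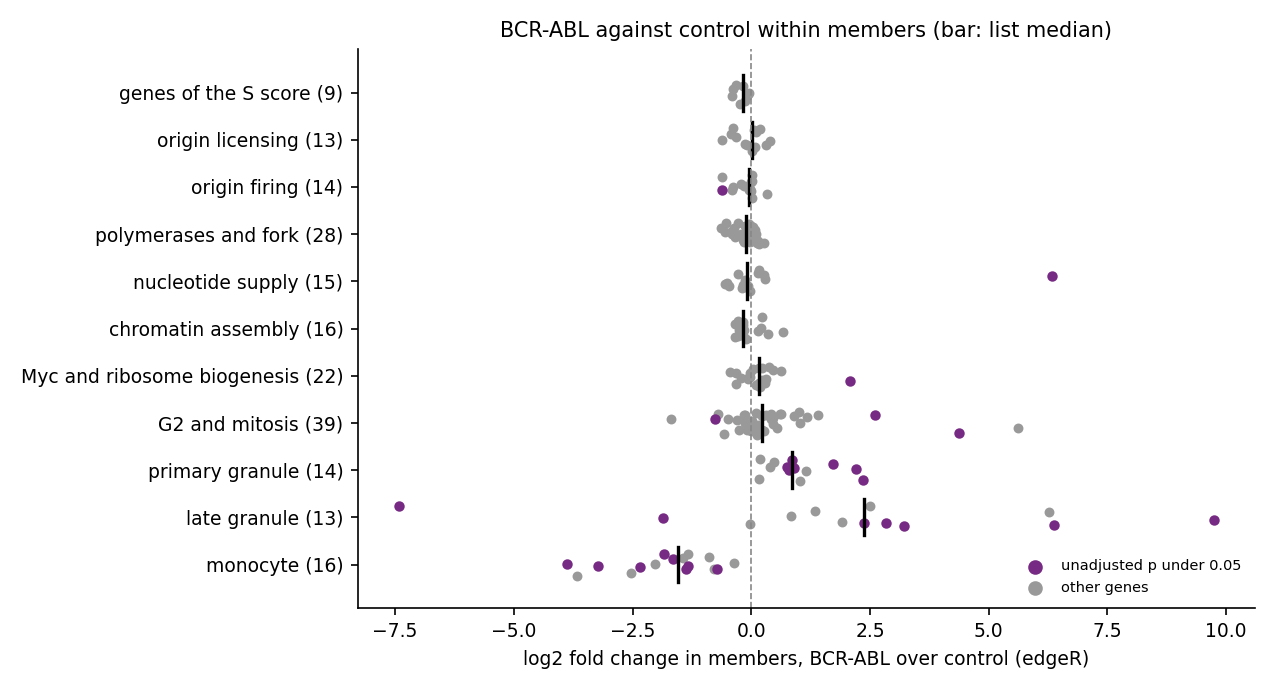
Log2 fold change of BCR-ABL over control in members (horizontal axis, edgeR) for each tested gene of 11 lists, with the number of genes in brackets. The list of the 9 genes of the S score is a description only, since these genes chose the members. Purple points mark an unadjusted p under 0.05, and a black bar the list median. Medians of the replication lists lie close to 0, all 14 primary granule genes lie right of it and all 16 monocyte genes left of it, and no point passed after adjustment in edgeR.

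Whether the difference between members and remaining wells itself changed with BCR-ABL was tested as an interaction, with set as a block. In edgeR's quasi-likelihood test 0 (0%) of 19525 genes passed, the smallest adjusted p being 1, and 777 (3.98%) had an unadjusted p under 0.05. DESeq2 called 111 genes, 83 higher and 28 lower, and limma-voom called 0 with 1076 at an unadjusted p under 0.05. List medians of the interaction were -0.03 for licensing, -0.04 for polymerases, -0.02 for nucleotide supply and 0.26 for G2 and mitosis. For primary granule, later granule and monocyte genes they were 0.20, -0.20 and -0.27. The BCR-ABL fold changes of these 3 lists in members had larger medians, 0.85, 2.38 and -1.54. Tpx2, a spindle assembly factor, had an interaction of 2.62 ± 0.41 on the log2 scale, with 56.2, 73.7 and 43.6 CPM in BCR-ABL members and 9.60 CPM in control members. Members were chosen for a low M score relative to their own set, and the level left in them differed. Before standardising, their median M score was 2.65, 2.56 and 2.69 with BCR-ABL and 1.78 without it. The M genes that chose the members had a median interaction of 0.97. How far this selection enters the interactions of Tpx2 and of the G2 and mitosis list was not tested. Myc had an interaction of -0.60 ± 0.17 and Rrm2 one of -0.50 ± 0.17, and neither passed after adjustment.

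Since the rule takes the same share of each set, the share of such cells was read with 1 common threshold, standardising over all 316 wells together. Above it lay 18 of 72 wells in BCR-ABL replicate 1 (exact binomial 95% interval 15.5% to 36.6%), 17 of 59 in replicate 2 (28.8%, 17.8% to 42.1%) and 13 of 91 in replicate 4 (14.3%, 7.83% to 23.2%). The control had 31 of 94 (32.98%, 23.6% to 43.4%). The BCR-ABL mean was 22.7% ± 7.53 (SD, 3 sets), 10.3 points under the control, and without replicate 4 the gap was 6.07 points. With 1 control set the smallest p an exact permutation test can give is 0.25, so no test was made, and the intervals cover counting error only.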

How the data were processed

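Single GMPs from 3 BCR-ABL sets and 1 control set of 96 wells each were measured by SMART-seq2 and Illumina sequencing, per the labels' protocols. The authors deposited raw read counts per gene. The submitters' processing notes name GSNAP, HTSeq 0.5.3p3 and the build mm10. The strand setting of the counting is not given in the sources used here, so reads of a gene and of an antisense or overlapping partner cannot be told apart. Of all reads 44.9% lay on 46078 gene rows, 0.265% on 92 spike-in rows and 40.9% were not aligned; neither spike-ins nor the 5 summary rows entered any total or test. No per-sample column was left unused (0 columns).

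Symbols were found for 45143 gene rows in GENCODE. Wells needed 200000 reads on genes and 2000 genes. No doublet caller was run (1 cell was sorted per well), and wells with many genes were kept. The members and gene lists were chosen with earlier results of these data known. Members against remaining wells is a description, as log2 of summed CPM plus 1, over genes read in at least 25% of wells. Sums over members were tested with edgeR 4.0.16 (TMM factors, filterByExpr, quasi-likelihood F test, Benjamini-Hochberg adjustment over all genes tested, threshold 0.05) in R 4.3.3. Alternatives were DESeq2 1.42.0, limma 3.58.1 (voom), RLE factors, no filter on low counts, thinning to 200000 reads, other class sizes, scores, filters and pseudocounts, and leaving out each set. The scripts were tested on simulated data. Other steps used Python 3.11.15, numpy 2.4.6, pandas 2.3.3 and scipy 1.17.1.

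Named genes were the score genes, the 12 largest differences in each direction with at least 10 CPM, the 5 smallest p in each direction of both tests, up to 5 genes of each list with the largest difference together with those counted, and a fixed set of cycle and lineage genes. Some named genes are not reported here. Predicted genes, pseudogenes, genes of the Y chromosome, Xist and Tsix were left out of the ranking, while other X-linked genes were kept. Other list genes are given from the lists' own tables and were chosen after their values were seen, as was Xist. Reads without molecular identifiers are not independent molecules, so intervals and floors cover counting error only.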

Additional observations from a re-analysis of the deposited data

How the results depend on the processing

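Every one of the 48 named genes counted as higher or lower kept its sign under the alternatives run. The 48 include 4 genes of the S score and 6 of the M score, which chose the members. All were picked for the same sign in 4 of 4 sets, so leaving out a set could not turn any of them. The kept signs are therefore a description only. The count of 46 higher genes was 95 with means of log2(CPM+1) over wells, 3 with a 2-fold difference asked of every set, 15 with a pseudocount of 5 CPM and 96 without the detection filter, and ran from 55 to 74 with a set left out. With a set left out the same sign was asked of 3 sets only, an easier condition than 4 of 4. The count of 200 lower genes was 65 with 2-fold in every set, 107 with a pseudocount of 5 CPM, 326 without the detection filter and 120 against the middle of the score alone. DESeq2 called 417 genes for BCR-ABL against control and 111 for the interaction, where edgeR called 0. The cause of these differences was not tested.

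With means of log2(CPM+1) over wells, list medians were 0.62 for licensing, 0.58 for firing, 0.71 for polymerases, 0.55 for nucleotide supply, 0.53 for chromatin and 0.50 for MYC and ribosome biogenesis. With the S score alone they were 0.73 for licensing, 0.58 for firing, 0.56 for polymerases, 0.63 for nucleotide supply, 0.34 for E2F and cyclin genes, 0.48 for chromatin, 0.58 for repair, -0.84 for G2 and mitosis, -0.46 for quiescence, 0.47 for MYC and ribosome biogenesis and -0.65 for late granules. Against the middle they were 0.35, 0.18, 0.18 and 0.057 for licensing, firing, polymerases and nucleotide supply, 0.068 for chromatin and -1.09 for G2 and mitosis. The median for nucleotide supply was 0.36 in thinned wells and 0.18 to 0.31 with a set left out, that for p53 targets was -0.066 to 0.16 with a set left out, and that for G2 and mitosis was -1.77 in the top 20% of wells.

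The member class is a range of a score, and 53 of 80 members were chosen again by the S score alone. No paired analysis was possible because the control has 1 set, which shares only the number of BCR-ABL replicate 1.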

Other observations

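Genes linked to quiescence had a median member-minus-rest difference of -0.19 over 12 measured genes, with 4 lower and 0 higher in 4 of 4 sets. Ccng2, a cyclin G gene, differed by -1.85 ± 1.46. Klf6, an immediate early transcription factor gene, differed by -1.18 ± 1.03. Targets of p53 had a median of -0.06 over 9 measured genes, with 2 higher in 4 of 4 sets.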
